A study of Mus musculus with 6 samples.

Results

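The MHC class II presentation genes described here are 8 of the 54532 genes in the deposited expression table, selected by symbol: Cd74, H2-Aa, H2-Ab1, H2-Eb1, H2-DMa, H2-DMb1, Ciita and Cd86. All 8 were found once in the table. They were measured by RNA sequencing in CD11b-positive cells, which were selected with a positive selection kit from tibial bone marrow of mice aged 12 weeks. The control group held 3 libraries labelled Tshr+/+ (wild type) and the mutant group 3 libraries labelled Tshr-/-, named below by group and sample number. Thyroid-stimulating hormone acts through the receptor that Tshr encodes. A second label calls the mutants a knockdown, and the labels give neither the strain, nor the sex, nor the part of Tshr that the mutation alters. All 6 libraries carry a treatment label of osteoclast differentiation with no time, and no culture step is described. The titles number the samples within each group and do not say whether a library came from a single mouse or several. P-values measure the spread between these libraries.

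MHC class II molecules carry peptides from endosomes to the cell surface, where CD4-positive T cells read them. An alpha and a beta chain assemble in the endoplasmic reticulum around the invariant chain Cd74, which blocks the peptide groove, and the H2-DM heterodimer later exchanges the last fragment of Cd74 for other peptides. Dendritic cells, B cells and some macrophages make class II constantly, whereas neutrophils, the most frequent CD11b-positive cells of bone marrow, make little. The transactivator Ciita switches the genes on together by docking on factors bound at the X and Y boxes of their promoters.

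The shared promoter elements are shown for 3 of the 8 members, among the 4 whose start-site windows were read. These RefSeq windows of 300 bases (GRCm38.p6, 250 before and 50 after the start) were those of H2-Aa, H2-Eb1, H2-DMb1 and H2-DMa. The 150 bases before the start of 3 of them read, from 5′ to 3′ on the strand of the gene, with the X box letters GNAAC and the Y box letters ATTGG in capitals:
H2-Aa (chr17:34287824-34287973, minus strand): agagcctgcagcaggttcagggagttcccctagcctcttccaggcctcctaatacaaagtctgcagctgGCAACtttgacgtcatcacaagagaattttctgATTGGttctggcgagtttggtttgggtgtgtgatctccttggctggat
H2-Eb1 (chr17:34305717-34305866, plus strand): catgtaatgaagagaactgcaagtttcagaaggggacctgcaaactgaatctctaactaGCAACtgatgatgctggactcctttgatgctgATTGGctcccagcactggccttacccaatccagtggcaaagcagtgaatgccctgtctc
H2-DMb1 (chr17:34153041-34153190, plus strand): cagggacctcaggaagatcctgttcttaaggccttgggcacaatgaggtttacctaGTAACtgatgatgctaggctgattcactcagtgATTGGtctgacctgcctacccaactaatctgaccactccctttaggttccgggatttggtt
The pair of motifs started 81 and 48 bases before the start site in H2-Aa, 91 and 59 bases in H2-Eb1, and 94 and 61 bases in H2-DMb1. The distance from one motif start to the other was 33, 32 and 33 bases. The letters and the permitted distance, 25 to 40 bases from start to start so that they do not overlap, were chosen after these promoters had been read. The class II windows were searched on the strand of the gene only. GNAAC followed by ATTGG at that distance stood in 1.33% of 32851 windows of that length on that strand, and in 2.67% on either strand. ATTGG anywhere on either strand stood in 37.4% and GNAAC in 84.8%. Of 10 class II genes of the same stretch of chromosome 17, 8 had a window and 6 held the pair, namely the 3 printed and the neighbours H2-Oa, H2-Ob and H2-Eb2. The start sites in the 2 windows of H2-DMa lie 12350 and 9664 bases upstream of the gene start in the deposited table, and these windows and that of H2-DMb2 did not hold the pair. The RefSeq start site of H2-DMb1 (34153191) lies downstream of its gene start in the deposited table (34153072), so both of its motifs fall inside that gene span. For H2-DMb2 the start site (34145249) also lies downstream of the gene start (34143307). Presence of the letters does not show that a factor binds there.

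The libraries held between 14698126 and 17976477 fragments. FPKM are fragments scaled to gene length and to a library size, which was not the fragment total of the library. That size was 0.939 to 1.12 times the total, highest in Tshr-/- 3 (1.12) and Tshr+/+ 3 (1.08), and the reason was not tested. Tshr, which checks the labels, had 0.537, 0.552 and 0.405 FPKM in Tshr+/+ 1, 2 and 3, and 0.414, 0.297 and 0.00825 FPKM in Tshr-/- 1, 2 and 3. The library labelled Tshr-/- 3 thus held 1 fragment of Tshr, whereas the libraries labelled Tshr-/- 1 and 2 held 40 and 25. The means differed by -0.258 FPKM (two-sided exact permutation test, p = 0.2, where 3 against 3 libraries cannot go below 0.1). Where in Tshr the mutation lies is not stated, so fragments outside it would not check the label. Since 2 of the libraries labelled Tshr-/- held Tshr fragments in number and 1 did not, results are also given without Tshr-/- 1 and 2. The integrin gene Itgam, which encodes CD11b, had 87.4 to 134 FPKM in the 6 libraries. The neutrophil list, led by the calprotectin genes S100a8 and S100a9, summed to 78262 to 121841 FPKM. Of the gene lists for antigen-presenting cells, none had all its genes at 0, and levels within a list differed. Pax5, which defines the B lineage, was at 0 to 0.151 FPKM, whereas Cd79b of the same list was at 1.99 to 4.54 FPKM. Zbtb46, which marks conventional dendritic cells, was at 0.0284 to 0.117 FPKM, whereas Mgl2 of that list was at 6.27 to 8.39 FPKM. At least 1 FPKM in at least 3 libraries was reached by 2 of 10 B cell genes and 5 of 11 conventional dendritic cell genes.

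Cd74, the invariant chain, was the most abundant member. The gene (ENSMUSG00000024610, chromosome 18, 60803848 to 60812646, plus strand, GRCm38) had 267, 158 and 204 FPKM in Tshr+/+ 1, 2 and 3, and 144, 126 and 233 FPKM in Tshr-/- 1, 2 and 3. Tshr+/+ 1 and Tshr-/- 3 were the highest libraries and the groups overlapped. Tshr+/+ averaged 209.9 ± 55.0 FPKM and Tshr-/- 168 ± 57.6 FPKM (SD, n = 3). The log2 fold change was -0.34 ± 0.28 (SE; 95% interval -1.01 to 0.33; limma, adjusted p = 0.9997), on the scale of log2(FPKM + 1), which understates changes of low genes. Each Cd74 value rested on 2492 to 6633 fragments, so that counting error averaged 1.54% while the values varied by 29.4% over the 6 libraries (coefficient of variation).

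The peptide-binding chains followed nearly the same order of libraries. H2-Aa encodes the alpha chain of the I-A molecule (ENSMUSG00000036594, chromosome 17, 34282744 to 34287827, minus strand) and had 64.1, 39.3 and 45.6 FPKM in Tshr+/+ 1, 2 and 3, and 41.6, 32.4 and 59.8 FPKM in Tshr-/- 1, 2 and 3. H2-Ab1, its beta chain partner (ENSMUSG00000073421, 34263209 to 34269418, plus strand), had 86.1, 57.7 and 60.8 FPKM, and 54.9, 48.3 and 80.6 FPKM. H2-Eb1, the beta chain of I-E (ENSMUSG00000060586, 34305877 to 34316199, plus strand), had 100.1, 64.4 and 73.9 FPKM, and 58.9, 50.5 and 93.7 FPKM. For all 3 genes Tshr+/+ 1 was highest, Tshr-/- 3 second and Tshr-/- 2 lowest, so that the range inside each genotype was wider than the difference between them.

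The log2 fold change was -0.17 ± 0.26 (SE) for H2-Aa, -0.16 ± 0.23 for H2-Ab1 and -0.25 ± 0.26 for H2-Eb1, each with an adjusted p of 0.9997 in limma. The 95% intervals ran from -0.79 to 0.46, from -0.72 to 0.39 and from -0.88 to 0.37, and thus held both falls and rises.

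**Figure D1:**
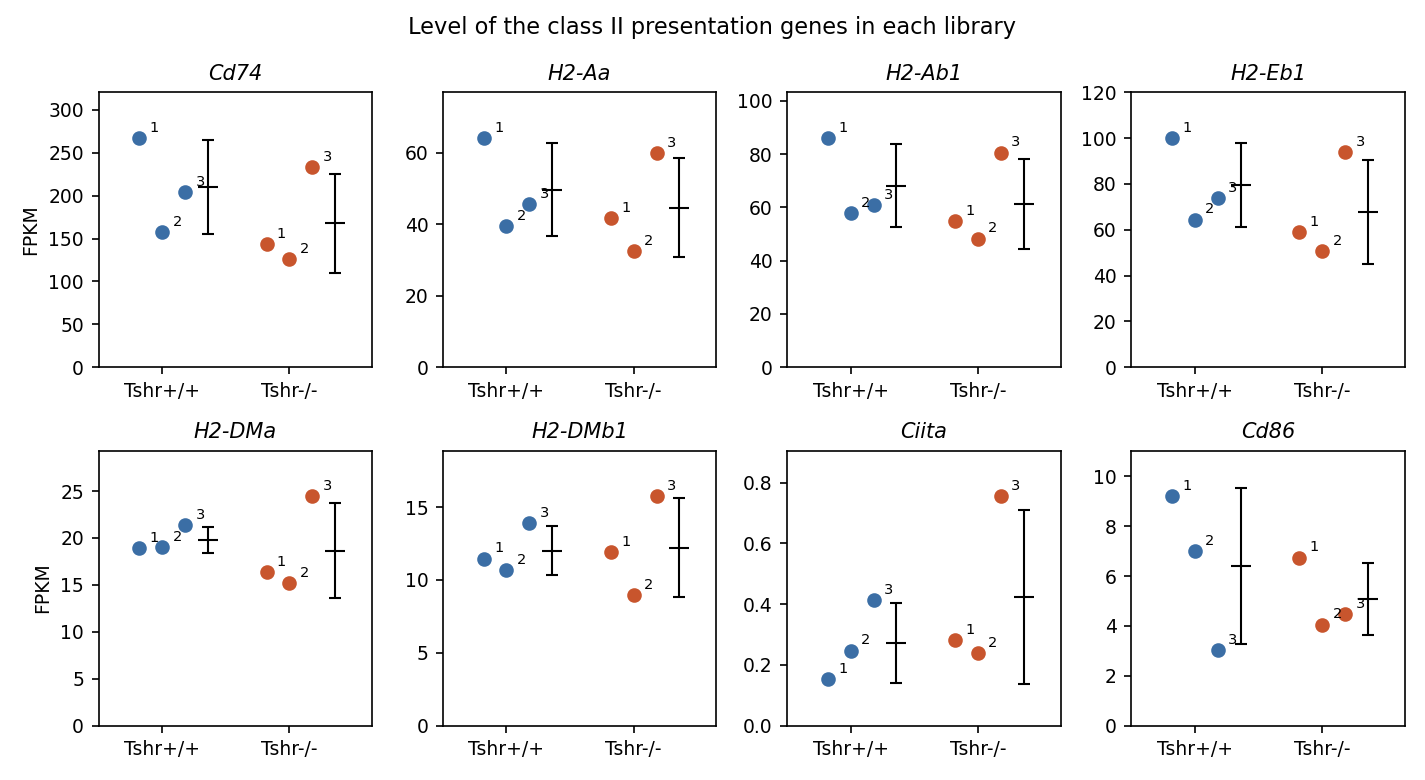
Level of each of the 8 genes in FPKM (vertical axis, from 0) in the 3 Tshr+/+ libraries (blue) and the 3 Tshr-/- libraries (orange), with the sample number beside each point and the mean and SD at the right of each group. Cd74, H2-Aa, H2-Ab1 and H2-Eb1 are highest in Tshr+/+ 1 and Tshr-/- 3, while Ciita and the H2-DM genes are highest in Tshr-/- 3 and Cd86 is lowest in Tshr+/+ 3.

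Although the chain genes varied up to 2.12-fold between libraries, the proportions between them varied little. H2-Ab1 stood at 1.32 to 1.49 times H2-Aa in the 6 libraries, with a coefficient of variation of 5.42% against 23.3% for H2-Ab1 and 26.1% for H2-Aa alone. H2-Eb1 stood at 1.05 to 1.22 times H2-Ab1, which put H2-Eb1 above H2-Ab1 in each library although their ranges over libraries overlapped. These ratios compare FPKM, that is levels per gene length, and the scaling between libraries cancels in them. Cd74 was 3.45 to 4.49 times H2-Aa: the ratio was 4.17, 4.01 and 4.49 in Tshr+/+ 1, 2 and 3 and 3.45, 3.89 and 3.90 in Tshr-/- 1, 2 and 3. Of 12 ratios computed between members and Cd80, this was the one whose groups did not overlap (4.22 ± 0.244 in Tshr+/+ and 3.75 ± 0.256 in Tshr-/-, SD, n = 3). Its two-sided exact permutation p was 0.1 (the smallest that 3 against 3 allow, and 0.6 after Benjamini-Hochberg adjustment over the 12 ratios). Cd74 over H2-Ab1 (2.73 to 3.36 against 2.61 to 2.90) and over H2-Eb1 (2.45 to 2.77 against 2.44 to 2.49) overlapped. Libraries of the same number were also compared as pairs, after the data had been seen and although the labels do not call them pairs. In 3 of 3 such pairs, 5 of the 12 ratios were lower in Tshr-/-. They were Cd74 over H2-Aa, over H2-Ab1 and over Ciita, and H2-Eb1 over H2-Aa and over H2-Ab1. These ratios share genes and are not separate results. For each of these 5 the exact sign-flip permutation p was 0.25, the smallest that 3 pairs allow.

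The peptide editor genes were lower and ordered the libraries differently. H2-DMa (ENSMUSG00000037649, chromosome 17, 34135182 to 34139101, plus strand) had 19.0, 19.1 and 21.3 FPKM in Tshr+/+ 1, 2 and 3, and 16.4, 15.2 and 24.4 FPKM in Tshr-/- 1, 2 and 3. Its Tshr+/+ values were close together (SD 1.35, n = 3), and the Tshr-/- values lay on both sides of them (SD 5.04, n = 3). H2-DMb1, the partner chain (ENSMUSG00000079547, 34153072 to 34160230, plus strand), had 11.5, 10.7 and 13.9 FPKM, and 11.9, 8.98 and 15.7 FPKM. In contrast to the chain genes, Tshr+/+ 1 was not the highest library for either, and Tshr-/- 3 and Tshr+/+ 3 led. The log2 fold changes were -0.11 ± 0.18 (SE) for H2-DMa and -0.0025 ± 0.20 for H2-DMb1 (limma, adjusted p = 0.9997 for both), with 95% intervals of -0.54 to 0.33 and -0.48 to 0.48. H2-DMb1 has a close copy next to it, H2-DMb2, and 22.7% of the 50-base stretches of its GENCODE M21 transcripts also occur in other genes' transcripts, all of them in H2-DMb2, so its level depends on how shared fragments were assigned. For H2-DMa that share was 8.43%, all with the neighbouring gene Brd2.

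Ciita, the transactivator, was the least abundant member and had the largest ratio of highest to lowest library, 4.90, although its SD over the 6 libraries on the log2(FPKM + 1) scale was the smallest of the 8 (0.22). The gene (ENSMUSG00000022504, chromosome 16, 10480059 to 10528418, plus strand) had 0.154, 0.247 and 0.414 FPKM in Tshr+/+ 1, 2 and 3, from 25, 39 and 73 fragments, and 0.280, 0.239 and 0.755 FPKM in Tshr-/- 1, 2 and 3, from 43, 32 and 145 fragments. The library labelled Tshr-/- 3 stood alone: its exact 95% Poisson interval, 0.637 to 0.888 FPKM, began above the upper bounds of the other 5 libraries, of which the highest was 0.520 FPKM in Tshr+/+ 3. These intervals cover counting error only. Ciita was below the filter of limma, and the difference of its means, 0.153 FPKM higher in Tshr-/-, had a two-sided exact permutation p of 0.6. Without Tshr-/- 3 the difference was -0.0117 FPKM. Tshr+/+ 1 held the lowest Ciita value and the highest Cd74, H2-Aa, H2-Ab1 and H2-Eb1 values, and Cd74 stood between 309 and 1738 times Ciita. Dexi overlaps Ciita on the opposite strand by 25888 bases and averaged 71.3 fragments a library against 59.5 for Ciita. That overlap is of the whole gene spans; of the 50-base stretches of Ciita transcripts in GENCODE M21, 1.46% also occur in transcripts of Dexi on either strand. Whether counting used strand is not stated in the labels.

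Cd86, a co-stimulatory ligand that activated antigen-presenting cells show to CD28 on T cells, did not follow the class II chains. It is the only member outside peptide loading and its control. Cd86 (ENSMUSG00000022901, chromosome 16, 36603869 to 36666081, minus strand) had 9.20, 7.01 and 3.04 FPKM in Tshr+/+ 1, 2 and 3, and 6.74, 4.05 and 4.49 FPKM in Tshr-/- 1, 2 and 3. Tshr+/+ held both the highest and the lowest value. The log2 fold change was -0.21 ± 0.35 (SE; 95% interval -1.04 to 0.62; limma, adjusted p = 0.9997), the widest interval of the tested members. Cd80, which binds the same receptor, had 18.7, 16.3 and 6.88 FPKM, and 14.4, 15.8 and 6.97 FPKM, so that it was lowest in the libraries numbered 3 of both groups, where Cd86 was lowest in Tshr+/+ 3 only.

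Per gene length the order of the means over the 6 libraries was Cd74 (189 FPKM), H2-Eb1 (73.6), H2-Ab1 (64.7), H2-Aa (47.1), H2-DMa (19.2), H2-DMb1 (12.1), Cd86 (5.76) and Ciita (0.348). The ranges over libraries of H2-Eb1, H2-Ab1 and H2-Aa overlapped, and so did those of H2-DMa and H2-DMb1 and those of H2-DMb1 and Cd86. The range of Cd74 lay above that of H2-Eb1, that of H2-Aa above that of H2-DMa, and that of Cd86 above that of Ciita.

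Levels differed widely among 10 class II genes of chromosome 17, which were picked by family from a stretch of 252 kb that also holds the class I loading genes Psmb9, Tap1, Psmb8 and Tap2. H2-Oa and H2-Ob, which form the inhibitor of H2-DM, averaged 1.02 and 0.613 FPKM over the 6 libraries. H2-DMb2 averaged 3.25 FPKM, below both of its neighbours H2-DMa and H2-DMb1. H2-Eb2, next to H2-Eb1, had 0.0490 to 0.301 FPKM from 2 to 11 fragments. H2-Ea-ps, the pseudogene of the I-E alpha chain, had 2 fragments in Tshr-/- 1 and none in the other 5 libraries, where a count of 0 allows up to 0.217 to 0.312 FPKM (3 fragments). H2-Eb1 transcripts were therefore present at 50.5 to 100.1 FPKM while the annotated partner of their product was at or under that floor. Of these neighbours H2-Oa and H2-DMb2 passed the filter, with log2 fold changes of -0.15 ± 0.17 (SE) and -0.01 ± 0.15 (limma, adjusted p = 0.9997 for both), and H2-Ob and H2-Eb2 had a difference of means of -0.00669 and -0.0130 FPKM (exact permutation test, p = 1 for each).

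**Figure D2:**
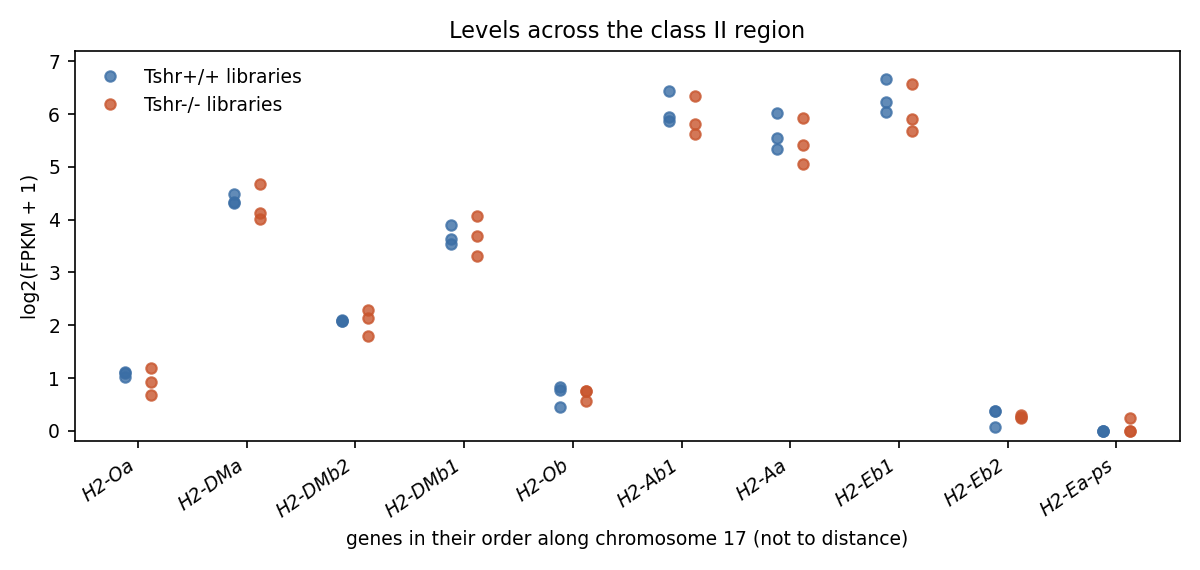
Level of 10 class II genes as log2(FPKM + 1) (vertical axis), in their order along chromosome 17 (horizontal axis, not to distance), with 1 point a library, blue for Tshr+/+ and orange for Tshr-/-. H2-Ab1, H2-Aa and H2-Eb1 stand highest, H2-DMa and H2-DMb1 next, and H2-Eb2 and H2-Ea-ps near 0, and the points of both genotypes overlap in each gene.

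No member passed the threshold between the genotypes. Of the 7 that passed the filter (at least 1 FPKM in at least 3 libraries), 0 were called higher and 0 called lower by limma (adjusted p under 0.05), and 0 had an unadjusted p under 0.05 (range 0.266 to 0.990). Over all 10913 genes tested, 0% were called higher and 0% lower, and 2.90% had an unadjusted p under 0.05; no adjusted p was smaller than 0.566. The groups did not overlap in 0 of the 8 members, against 6.77% of all genes tested (3.23% higher and 3.55% lower in Tshr-/-). The 7 fold changes were all below 0, with a median log2 value of -0.17, where 52.9% of all genes tested were below 0 with a median of -0.01; H2-DMb1 turned to above 0 after scaling to equal FPKM totals (0.047), after quantile normalization (0.017) and with voom (0.017). Both the count and the median rested on single libraries. Without Tshr+/+ 1, as without Tshr-/- 2, 4 members were below and 3 above 0. The median was -0.03 without Tshr+/+ 1 and -0.01 without Tshr-/- 2, but -0.27 without Tshr+/+ 2 and -0.38 without Tshr-/- 3. With both libraries numbered 3 left out it was -0.45. Without the libraries labelled Tshr-/- 1 and 2, which leaves Tshr-/- 3 alone in its group, 6 of the 7 were above 0 and the median was 0.26. In that comparison the spread comes from the Tshr+/+ libraries alone and Tshr-/- 3 is assumed to vary like them, so the absence of calls says little.

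**Figure D3:**
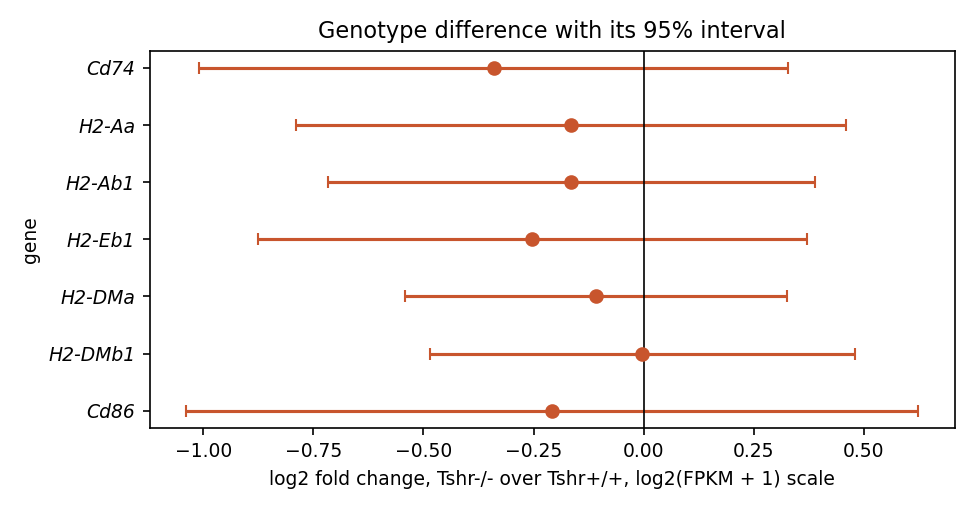
Log2 fold change of Tshr-/- over Tshr+/+ on the log2(FPKM + 1) scale (horizontal axis) for the 7 members that passed the filter (vertical axis), as points with 95% intervals from limma. Every interval crosses 0, and that of Cd86 is the widest, from -1.04 to 0.62.

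Across libraries the invariant chain and the binding chains had nearly 1 shape, and the other members departed from it. Each gene was centred on its mean log2(FPKM + 1) over the 6 libraries, and likeness was the root mean square difference between 2 centred genes. Within Cd74, H2-Aa, H2-Ab1 and H2-Eb1 that difference was 0.0672 to 0.135, and between H2-DMa and H2-DMb1 it was 0.111. Between these 2 sets it was 0.210 to 0.292, and Cd86 stood 0.443 to 0.586 from every other member. Cd86 was 0.483 from the mean of the 4 chain genes, where the median of other genes with at least 5 FPKM was 0.381. Ciita was nearest to H2-DMb1 (0.140) and H2-DMa (0.143), although its low level shrinks its differences on this scale. Relative to the mean of the 6 libraries, the 4 chain genes averaged 0.49 in Tshr+/+ 1, -0.18 in Tshr+/+ 2, 0.04 in Tshr+/+ 3, -0.24 in Tshr-/- 1, -0.47 in Tshr-/- 2 and 0.37 in Tshr-/- 3.

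**Figure D4:**
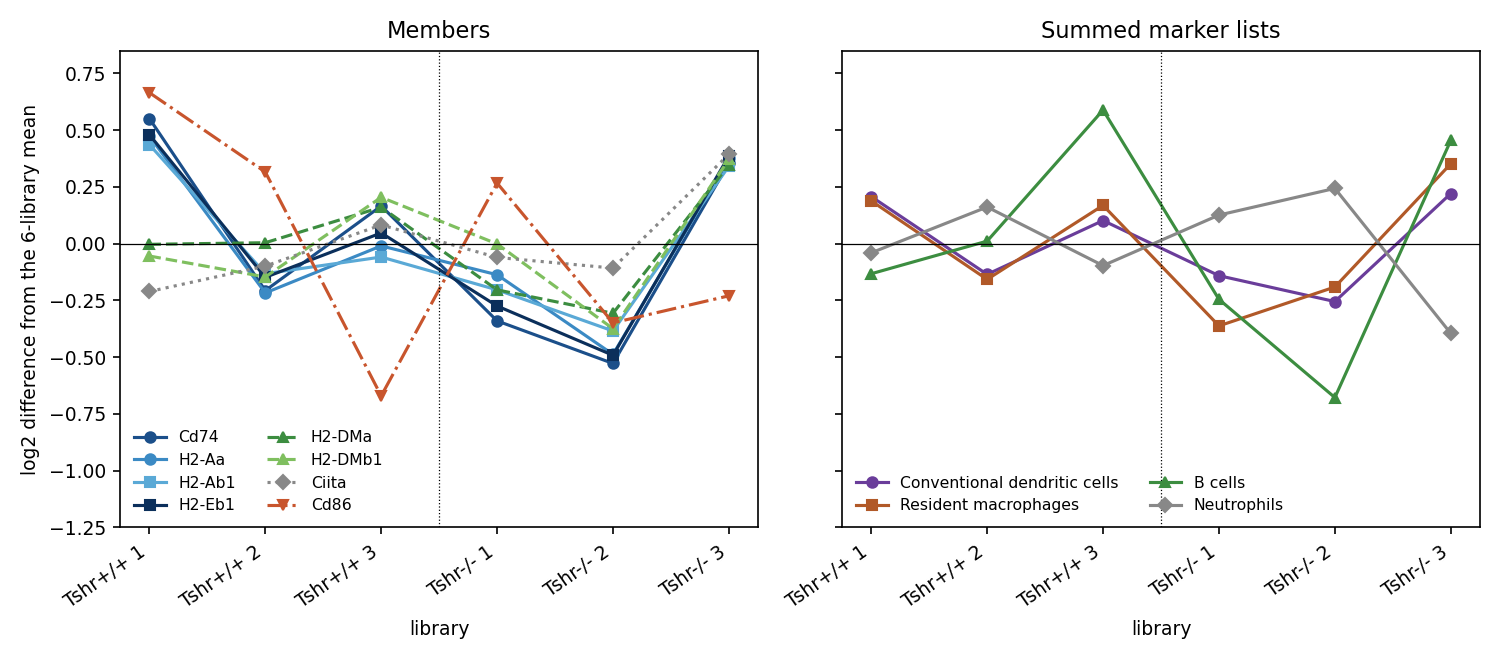
Log2 difference of each library from the mean of the 6 libraries (vertical axis) for the 8 members (left) and for the summed FPKM of 4 marker lists (right); lines only join the points of 1 gene or list, and the dotted line parts Tshr+/+ from Tshr-/-. The 4 chain genes peak in Tshr+/+ 1 (0.49 on average) and Tshr-/- 3 (0.37), the dendritic cell and macrophage sums are high in the same libraries, and the neutrophil sum is lowest in Tshr-/- 3.

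Some marker lists of antigen-presenting cells ordered the libraries like the members and others did not. The conventional dendritic cell list (11 of 11 genes in the table, 5 past the filter) summed to 25.5, 20.1 and 23.7 FPKM in Tshr+/+ 1, 2 and 3, and to 20.02, 18.5 and 25.7 FPKM in Tshr-/- 1, 2 and 3. The 3 highest libraries of this sum were those of Cd74, and Tshr-/- 2 was lowest for both. Its largest terms, Mgl2 and Itgax, each ordered the libraries differently from the sum. Itgax was second highest in Tshr-/- 2 (7.36 FPKM) and lowest in Tshr+/+ 3 (5.22 FPKM). Mgl2 was highest in Tshr+/+ 3 (8.39 FPKM) but, like the sum, lowest in Tshr-/- 2 (6.27 FPKM). Clec10a and Cd209a were also lowest in Tshr-/- 2 (1.304 and 0.991 FPKM). The resident macrophage list (14 of 14 genes, all past the filter) summed to 243, 191 and 239 FPKM, and to 166, 187 and 272 FPKM, with Tshr-/- 3, Tshr+/+ 1 and Tshr+/+ 3 highest. The B cell list (10 of 10 genes, 2 past the filter) summed to 6.21, 6.86 and 10.2 FPKM, and to 5.75, 4.26 and 9.33 FPKM, so that the libraries numbered 3 of both groups were highest, as they were for Ciita, H2-DMa and H2-DMb1; its genes Pax5 and Fcmr were at 0 in 1 library each. Other lists ran differently. The plasmacytoid dendritic cell list (8 genes, 3 past the filter) summed to 28.1, 37.7 and 34.1 FPKM, and to 45.7, 42.2 and 35.6 FPKM, lowest in Tshr+/+ 1, where the chain genes were highest. Most of that sum was Bst2, with 21.3, 29.7 and 26.6 FPKM, and 36.1, 32.0 and 27.5 FPKM. Siglech of the same list was at 0.0867 to 0.411 FPKM, so the order of the sum is mainly that of Bst2. The monocyte list (10 genes, all past the filter) summed to 928 to 1131 FPKM and was highest in Tshr+/+ 2. The neutrophil list was highest in Tshr-/- 2 and lowest in Tshr-/- 3. The part of these cell types in the values of the members was not tested, and in such mixed samples fewer cells of a type and less RNA per cell cannot be told apart.

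The 10 genes nearest in shape to the 4 chain genes were of mixed kinds. Among 5675 other genes with at least 5 FPKM, the smallest differences were those of Sertad3 (0.121), Tppp3 (0.134), the immunoglobulin segment Igkv10-96 (0.146), Serinc3 (0.155) and Axl (0.155), a receptor kinase of macrophages. Napsa, an aspartic protease gene (0.159), Glul, which encodes glutamine synthetase (0.165), the cell cycle repressor gene E2f8 (0.170), Aplp2, a relative of the amyloid precursor gene (0.171), and the adhesion gene Vcam1 (0.172) came next. Axl had 11.5, 7.18 and 10.3 FPKM in Tshr+/+ 1, 2 and 3, and 5.79, 6.57 and 12.0 FPKM in Tshr-/- 1, 2 and 3. Axl and Vcam1 are also members of the macrophage list. Likeness over 6 libraries is only a description.

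No gene of the class II accessory list was called between the genotypes. Over all 10913 genes tested, 0% were called higher and 0% lower, and 52.9% had a log2 fold change below 0 (median -0.01). The accessory list had 16 genes in the data, of which 13 passed the filter and 0 were called. Of these, 2 had a log2 fold change above 0 and 11 below, with a median of -0.08; with equal FPKM totals 5 were above and 8 below, and without the libraries labelled Tshr-/- 1 and 2 the counts were 7 and 6, as they were without Tshr-/- 3 alone. Cst3, an inhibitor of cysteine cathepsins, was the most abundant with a mean of 318 ± 19.7 FPKM in the controls and 315 ± 8.41 FPKM in the mutants (SD, n = 3), followed by the protease gene Ctsd at 221 ± 49.5 and 202 ± 58.8 FPKM. Ctss, the cathepsin that trims Cd74, had 151, 121 and 160 FPKM in Tshr+/+ 1, 2 and 3, and 149.9, 102 and 213 FPKM in Tshr-/- 1, 2 and 3; it is outside the naming rule and was picked after its values were seen. Like Cd74, Ctss was lowest in Tshr-/- 2, and its highest library was Tshr-/- 3.

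The genes of class II transcription showed 4 members whose groups did not overlap. Of 19 in the list 17 passed the filter, 10 above and 7 below 0 with a median of 0.08 (0.018 without Tshr+/+ 1). Of these 0 were called, as were 0% of all genes tested, of which 52.9% were below 0. Against the 6.77% of all genes tested that did not overlap, 4 of 17 is a count over a list chosen with results known. Ep300, a histone acetyltransferase, had 14.3, 14.4 and 14.0 FPKM in Tshr+/+ 1, 2 and 3, and 16.9, 18.3 and 18.9 FPKM in Tshr-/- 1, 2 and 3 (log2 fold change 0.32 ± 0.09, SE; limma, unadjusted p = 0.0127, adjusted p = 0.9997). Kat2b, another acetyltransferase, had 11.1 ± 0.748 and 12.9 ± 0.642 FPKM, and Nfya, a subunit of the Y box factor NF-Y, 11.2 ± 0.235 and 12.3 ± 0.107 FPKM (SD, n = 3). Rfxap, a subunit of the X box factor RFX, went the other way, with 11.0 ± 0.679 and 9.44 ± 0.694 FPKM. None of these passed the adjustment over all genes. The most abundant of the list were Spi1, the myeloid factor PU.1, at 259.96 ± 8.12 and 243 ± 34.1 FPKM, and Atf1 at 32.7 ± 3.72 and 30.5 ± 1.49 FPKM.

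Beside the lists that follow, 0% of all 10913 genes tested were called higher and 0% lower. Of the same genes, 52.9% were below 0, with a median log2 fold change of -0.01. On the interferon gamma route to Ciita, 10 of 10 genes passed the filter, 6 above and 4 below 0 with a median log2 fold change of 0.02 (-0.06 without Tshr+/+ 3), and 0 were called. Its receptor chain gene Ifngr1 had 74.5 ± 9.58 and 70.1 ± 10.5 FPKM, and the kinase gene Jak1 52.0 ± 7.96 and 53.5 ± 4.20 FPKM (SD, n = 3). Among co-stimulatory genes and their partners 6 of 13 passed the filter, 1 above and 5 below 0 with a median of -0.02 (4 above and 2 below with equal FPKM totals or without Tshr-/- 3), and 0 were called. Cd48, an adhesion ligand of lymphocytes, had 21.4 ± 6.80 and 20.9 ± 5.29 FPKM. In the class I pathway, which loads peptides from the cytosol, 12 of 12 genes passed the filter, 11 above and 1 below 0 with a median of 0.12, and 0 were called. Without the libraries labelled Tshr-/- 1 and 2, 7 were above and 5 below. The counts were also 7 and 5 without Tshr-/- 2 alone, and without Tshr+/+ 1 they were 8 and 4 with a median of 0.0076; the median was 0.07 without Tshr-/- 1 and 0.23 without Tshr-/- 3. H2-D1, a class I heavy chain, had 1232 ± 147 and 1295 ± 308 FPKM (SD, n = 3). B2m, the light chain of class I, had 1127, 1355 and 1203 FPKM in Tshr+/+ 1, 2 and 3, and 1506, 1442 and 973 FPKM in Tshr-/- 1, 2 and 3. Tshr-/- 3 was thus the lowest library for B2m and among the highest 2 for the class II chains. Nlrc5, the transactivator of class I and a relative of Ciita, had 2.94, 3.33 and 3.33 FPKM, and 6.10, 4.90 and 5.28 FPKM, without overlap. Its log2 fold change was 0.61 ± 0.12 (SE, with an adjusted p of 0.9997 in limma). Of the 12 class I genes, 1 had groups without overlap, against 6.77% of all genes tested. Nlrc5 was called when limma weighted the libraries by their spread (weights 0.247 to 3.82), a setting that called 13 higher and 11 lower over all genes. The groups of Nlrc5 and those of the transcription list above are the ones without overlap among the tested genes of the 5 pathway lists.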

How the data were processed

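The deposited table gives FPKM for 54532 genes in 6 libraries, made by the authors from total RNA with a SMARTER mRNA kit, per the labels' protocols. The submitters' processing notes name the builds GRCm38 and mm10. The aligner, the counter and any use of strand are not stated in the labels. Columns headed HO were read as Tshr-/-. FPKM times gene length were whole multiples of 1 step in each library (100% within 0.01), which gave whole fragments. Log2(FPKM + 1) of the 10913 genes that reached 1 FPKM in 3 or more libraries was compared with limma 3.58.1 in R 4.3.3 (empirical Bayes with trend, two-sided, Benjamini-Hochberg, threshold 0.05). The limma steps were tested on simulated data with noise drawn separately for each gene, which does not cover shifts that many genes of a library share.

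The members and lists were chosen with earlier results of these data known. The naming rule took the members, the class II region, and from each list genes past the threshold or else those without overlap and the most abundant 2, and the 10 genes most like the chains. Alternatives were other pseudocounts, filters, scalings and weights, voom on whole fragments, the replicate number as a block, and libraries left out. The labels do not say that same-numbered libraries are pairs, and the main comparison did not pair them. After centring on the group means, same-numbered libraries had r = 0.24, 0.26 and 0.47 over genes for numbers 1, 2 and 3. Tshr-/- 1 with Tshr+/+ 2 had r = 0.34, above the values for numbers 1 and 2. With 3 libraries a group these values depend on each other and cannot settle whether the numbers mark pairs. Leaving out both libraries numbered 3, and the ratios in pairs, were added after seeing the data.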

Additional observations from a re-analysis of the deposited data

How the results depend on the processing

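With the replicate number as a block, 0 genes were higher and 0 lower, 0 members were called, the median log2 fold change of the members stayed at -0.17, and no call changed. No member was called under the alternatives run, of which the comparison without Tshr-/- 1 and 2 has 1 mutant library and says little on calls. Over all genes, array weights called 13 higher and 11 lower (weights 0.247 to 3.82), and leaving out both libraries numbered 3 called 13 higher and 11 lower, where 0 were called in the main comparison; leaving out 1 library gave 0 to 2 higher and 0 lower, with the 2 higher without Tshr-/- 3. The cause was not tested. Of the pathway lists, array weights called Nlrc5 and no other setting called a gene. The median of the members moved to 0.26 without the libraries labelled Tshr-/- 1 and 2, which put Cd74 at 0.19, H2-Aa at 0.29, H2-Ab1 at 0.26, H2-Eb1 at 0.26, H2-DMa at 0.29 and H2-DMb1 at 0.37. H2-DMb1 reversed from -0.0025 to 0.0025 with a pseudocount of 5, 0.047 with equal FPKM totals, 0.017 with quantile normalization, 0.10 with array weights and 0.017 with voom. Leaving out 1 library moved the log2 fold change of Cd74 between -0.60 and -0.15, H2-Aa between -0.39 and 0.037, H2-Ab1 between -0.38 and 0.013, H2-Eb1 between -0.51 and -0.07, H2-DMa between -0.31 and 0.018, H2-DMb1 between -0.19 and 0.18 and Cd86 between -0.59 and 0.074, and the median between -0.38 and -0.01. The difference of means moved between -0.346 and -0.143 FPKM for Tshr, -0.0117 and 0.246 for Ciita, -0.133 and 0.0761 for H2-Ob, and -0.0955 and 0.0303 for H2-Eb2. Leaving out 1 library moved the list medians between -0.13 and 0.0061 (accessory), 0.018 and 0.08 (transcription), -0.06 and 0.07 (interferon gamma route), -0.23 and 0.08 (co-stimulation) and 0.0076 and 0.23 (class I). Ciita, H2-Ob and H2-Eb2 rest on 2 to 145 fragments a library, which limits what can be seen of them.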

Other observations

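Cd274 and Cd83, picked here after their values were seen, were lowest in the libraries numbered 3 of both groups. Cd274, which encodes PD-L1, had 16.7, 15.4 and 5.82 FPKM in Tshr+/+ 1, 2 and 3, and 15.9, 14.5 and 6.30 FPKM in Tshr-/- 1, 2 and 3. Cd83, a surface protein of mature dendritic cells that stabilizes class II and CD86, had 14.8, 13.4 and 4.52 FPKM, and 7.32, 6.99 and 4.28 FPKM. Cd48 went the other way, with 15.7, 19.6 and 29.0 FPKM, and 19.2, 16.7 and 26.9 FPKM, and so did Cd40, the receptor through which T cells activate antigen-presenting cells, at 0.396, 0.514 and 1.06 FPKM, and 0.475, 0.544 and 0.962 FPKM. Other ligands of the list did not share this order: the ICOS ligand gene Icosl had 8.50, 8.52 and 8.82 FPKM, and 8.17, 10.5 and 7.003 FPKM, the 4-1BB ligand gene Tnfsf9 0.819, 0.655 and 0.922 FPKM, and 1.45, 0.442 and 1.27 FPKM, and the PD-L2 gene Pdcd1lg2 1.25, 0.771 and 0.296 FPKM, and 0.0756, 0.434 and 0.211 FPKM. The labels do not say what the sample numbers share.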
